A study of Mus musculus with 15 samples.

Results

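The genes described here drive DNA replication and cell division, and were followed across 5 sources of mouse fibroblasts. They are a list of 50 gene symbols, and a gene was taken from the array where the probe's gene name, or the symbol in brackets in its description, was on the list (Cdc2a is the older name of Cdk1, and Stk6 that of Aurka). By this rule 48 of the 50 were found among 33518 genes on the array, and all 48 were tested among 31227 genes. Gins2 and Mki67 were not analysed here. The 48 genes fall by role into 17 genes of DNA replication, 4 regulators of entry into S phase and 27 genes of mitosis.

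RNA of each source was measured on 3 two-colour Agilent arrays, 15 in all. The fibroblast RNA was labelled with Cy5, and Universal Mouse Reference RNA, a commercial pool of RNA from mouse cell lines, was labelled with Cy3 on every array, with no dye swap. All values below are log2 ratios of Cy5 to Cy3, so that 0 is the level of the reference pool and a difference of 1 between sources is a 2-fold difference. By the labels NSF and TAF-tib6 are sensitive, whereas the resistant sources are TAF-el4, TAF-tib42 and TAF-tib48, and the title of the series names fibroblasts of tumours that do not respond to treatment against VEGF. TAF was read from that title as tumour-associated fibroblast. What NSF, el4, tib6, tib42 and tib48 stand for, the strain and age of the mice, the culture conditions and any treatment of the cells before RNA was taken are not given in the sources used here. Each resistant or sensitive arm therefore consists of a few named sources, and nothing in the labels tells if its 3 arrays were separate cultures or one RNA measured repeatedly. P-values between sources therefore rest on array-to-array spread, which could be technical alone.

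A dividing cell first copies its DNA: cyclin D and cyclin E kinases inactivate the retinoblastoma proteins, E2F factors then switch on the replication genes, and the MCM helicase, the primase, the polymerases and the enzymes that make deoxynucleotides carry out S phase. Later in the cycle FOXM1, B-MYB and the MuvB complex switch on the mitotic genes, whose products condense chromosomes, build the spindle, check the attachment of kinetochores and split the cell. RNA of both groups is low in resting cells, and a fibroblast population with more cycling cells holds more of it. In bulk RNA, a larger share of cycling cells and more RNA per cycling cell cannot be told apart.

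Short motifs known from both waves were searched in the promoters of the members, and the 200 bases before the start of 6 are shown: Rrm2 for its difference in expression below, and the others as examples of the motifs. The sequences are from RefSeq on build GRCm38.p6, 5′ to 3′ on the strand of the gene. Capitals mark E2F words (TTTCCCGC, TTTCGCGC, TTTGCCGC or TTTGGCGC), the cell cycle homology region or CHR (TTTGAA or TTCGAA) and the CCAAT box (CCAAT), each on either strand. The first 3 belong to replication genes.

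Rrm2 promoter, chr12:24708054-24708253, plus strand: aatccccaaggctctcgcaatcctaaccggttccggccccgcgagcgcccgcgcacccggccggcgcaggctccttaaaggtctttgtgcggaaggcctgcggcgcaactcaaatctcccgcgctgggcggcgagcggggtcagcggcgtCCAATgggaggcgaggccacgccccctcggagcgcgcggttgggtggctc

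Mcm6 promoter, chr1:128359706-128359905, minus strand: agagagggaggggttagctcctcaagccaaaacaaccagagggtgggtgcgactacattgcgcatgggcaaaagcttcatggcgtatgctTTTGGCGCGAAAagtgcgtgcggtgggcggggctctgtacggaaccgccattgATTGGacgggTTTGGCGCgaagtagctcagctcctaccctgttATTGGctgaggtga

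Pola1 promoter, chrX:93632156-93632355, minus strand: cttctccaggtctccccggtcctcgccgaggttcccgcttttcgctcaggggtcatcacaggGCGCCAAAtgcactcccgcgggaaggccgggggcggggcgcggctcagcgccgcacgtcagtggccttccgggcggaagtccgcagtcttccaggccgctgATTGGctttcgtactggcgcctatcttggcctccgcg

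The next 3 belong to mitotic genes.

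Cdc2a promoter, chr10:69352913-69353112, minus strand: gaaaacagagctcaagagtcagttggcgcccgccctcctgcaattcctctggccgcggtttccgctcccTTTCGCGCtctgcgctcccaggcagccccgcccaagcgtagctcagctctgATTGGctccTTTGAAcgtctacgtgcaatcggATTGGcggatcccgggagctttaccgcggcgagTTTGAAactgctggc

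Cdc20 promoter, chr4:118437344-118437543, minus strand: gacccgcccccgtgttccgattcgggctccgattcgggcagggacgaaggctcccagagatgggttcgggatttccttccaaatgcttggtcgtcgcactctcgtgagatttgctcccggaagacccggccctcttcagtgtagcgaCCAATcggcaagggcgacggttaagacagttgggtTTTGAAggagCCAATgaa

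Ube2c promoter, chr2:164769729-164769928, plus strand: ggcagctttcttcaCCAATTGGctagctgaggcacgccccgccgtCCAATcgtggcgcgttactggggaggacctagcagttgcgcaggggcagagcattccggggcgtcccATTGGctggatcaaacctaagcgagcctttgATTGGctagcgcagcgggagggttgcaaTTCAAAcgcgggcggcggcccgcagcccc

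Mcm6, a subunit of the replicative helicase, had 3 matches to an E2F word, at 110, 106 and 47 bases before the start, and the first 2 of these overlap on opposite strands. Pola1, the catalytic subunit of DNA polymerase alpha, had 1 match at 138 bases. Rrm2 had a CCAAT box and no other match in this window. Cdc20, the activator of the anaphase-promoting complex, had a CHR match at 18 bases with CCAAT boxes at 8 and 53 bases, and Ube2c, the ubiquitin-conjugating enzyme of that complex, had a CHR match at 29 bases and 5 CCAAT matches, a pair of which overlap. Cdc2a, the mitotic kinase, had an E2F word at 131 bases and CHR matches at 71 and 15 bases.

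Promoters were found for 39 of the 48 genes, in 41 windows of 300 bases (250 before and 50 after the start). An E2F word was in 7 of 17 windows of replication genes (41.2%), in 1 of 22 of mitotic genes (4.5%) and in 2.3% of 32851 promoters of the table. A CHR match was in 4 of 17 windows of replication genes (23.5%), in 17 of 22 of mitotic genes (77.3%) and in 19.2% of all promoters. CCAAT was in 76.5% and 81.8% of the windows of replication and mitotic genes, against 37.4% of all promoters. A CHR match and a CCAAT box stood together in 16 of 22 mitotic windows (72.7%) and in 7.5% of all promoters. The 2 windows of G1/S regulators held none of the 3. Aurkb, Ccna2, Ccnd1, Ccne2, Cdc25c, Foxm1, Kif20a, Mcm4 and Tpx2 had no entry in the table. A match is a description of letters and was not tested as a binding site.

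The median Cy5 intensity of an array was 174.7 to 285.9 units, over a background of 52 to 56. Across the arrays, 89.7% to 95.8% of Cy5 probes were well above background, and all 48 members were so on all 15 arrays with none saturated. Arrays of the same source correlated at 0.9584 to 0.9863 over all genes, and arrays of different sources at 0.8382 to 0.9471. The slide numbers in the file headers form 3 runs of consecutive slides: all NSF arrays and TAF-el4 replicates 1 and 2 were in run 1, TAF-el4 replicate 3, all TAF-tib42 arrays and TAF-tib48 replicate 1 in run 2, and TAF-tib48 replicates 2 and 3 and all TAF-tib6 arrays in run 3. Fibroblast markers lay above the reference on every array, with medians of 10 genes between 0.97 and 1.70. Of the markers of other cells, the list medians lay between -1.71 and -1.31 for macrophages, -1.37 and -1.21 for epithelium, -0.08 and 0.03 for lymphocytes, 0.00 and 0.13 for melanocytes and 0.09 and 0.44 for endothelium. Ptprc (CD45), a single gene that marks leukocytes, lay between -4.73 and -4.02 on the 15 arrays, which the lymphocyte list median did not follow. The median Cy5 signal on the log2 scale was 7.14 to 8.09 for lymphocyte, 6.61 to 7.37 for melanocyte and 6.65 to 7.80 for endothelial markers. For fibroblast markers it was 14.66 to 15.72. The part of weak signal in the ratios near 0 was not tested. Against TAF-tib6, 4 of 10 fibroblast markers were lower and 2 higher in each resistant source, and 3 of 6 endothelial markers were higher in TAF-tib48, with Emcn at 1.79. In TAF-tib42, 3 of 7 macrophage markers were higher and 1 lower than in TAF-tib6. Against NSF, fibroblast markers were lower for 5, 3 and 4 of 10 in TAF-el4, TAF-tib42 and TAF-tib48, lymphocyte markers were higher for 0, 2 and 4 of 8, and endothelial markers were higher for 3 of 6 in TAF-tib48 and lower for 3 of 6 in TAF-tib42. The part of these cell markers in the results below was not tested.

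One array stood apart for the members and bears on every TAF-tib48 value. TAF-tib48 replicate 3 was the lowest of the 3 arrays of its source for 44 of the 48 members, and its members lay at a median of 0.04 above the mean of the 2 sensitive sources, with 29 of 48 above it. Replicates 1 and 2 lay at medians of 0.31 and 0.50 above that mean, with 47 of 48 above on each. Their median Cy5 signal on the 3 arrays was 9.71, 9.53 and 8.75 on the log2 scale, with Cy3 at 9.55, 9.50 and 9.51. The median of all genes against the same mean was near 0 on each of the 3 arrays (-0.003, -0.003 and -0.007). The median fibroblast marker on the 3 arrays was 0.97, 1.18 and 1.53. Over all genes its lowest correlation with its own source was 0.9601, above its highest with another source, 0.9065. TAF-tib48 results are given with and without replicate 3. That array was singled out by the values of these same members. Leaving it out therefore raises the TAF-tib48 mean of most members by construction, and calls made without it are not independent support.

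**Figure D1:**
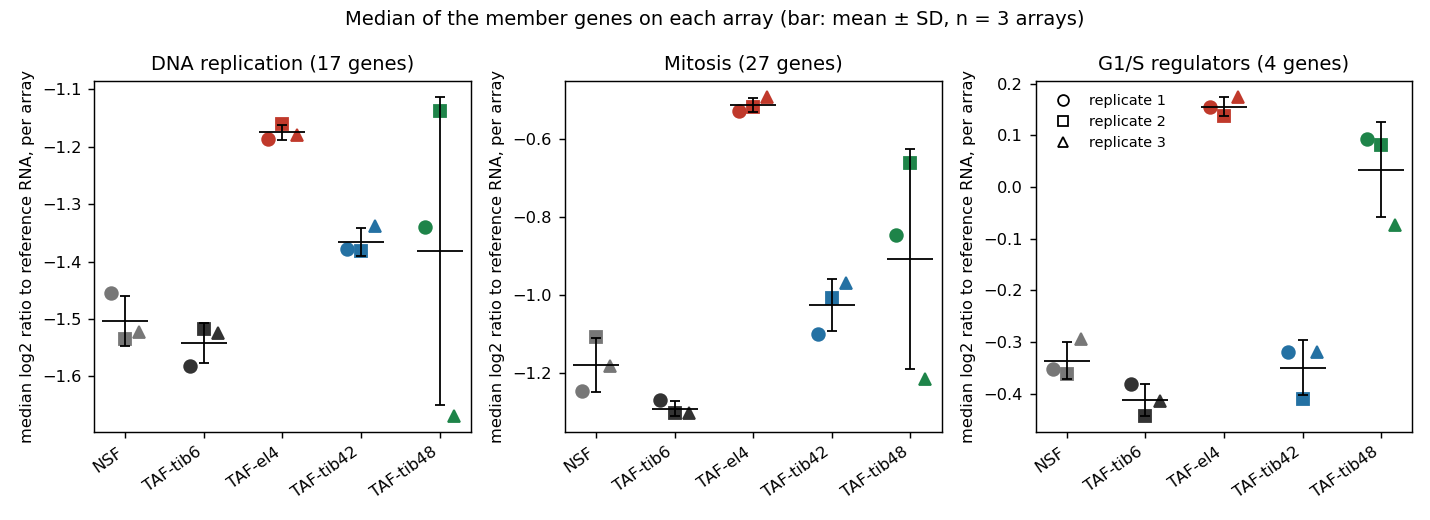
Median log2 ratio to the reference RNA of the replication, mitosis and G1/S genes on each array, by source, with the mean and SD of the 3 arrays of a source. TAF-el4 lies highest in the replication and mitosis panels by mean, and TAF-tib48 replicate 3 (triangle) lies below the sensitive sources in the replication panel and among NSF in the mitosis panel.

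Taken as a list, the members were highest in TAF-el4 and lowest in the sensitive sources. The mean of the array medians of all 48 genes was -0.62 ± 0.02 (SD, n = 3 arrays) in TAF-el4, -1.03 ± 0.18 in TAF-tib48, -1.09 ± 0.03 in TAF-tib42, -1.28 ± 0.03 in NSF and -1.32 ± 0.02 in TAF-tib6. TAF-tib42 and TAF-tib48 overlapped, and the lowest TAF-tib48 array (-1.23) lay beside the highest NSF array (-1.26). TAF-el4 had the highest mean of the 5 sources for 43 of 48 members, and the lowest mean was that of TAF-tib6 for 35 and of NSF for 11. For 32 of 48 members all 3 TAF-el4 arrays lay above all 12 other arrays, as against 5.15% of all genes tested. These 32 were 9 of 17 replication genes, 2 of 4 G1/S regulators and 21 of 27 mitotic genes. Most members lay below the reference pool in every source: 8 of 48 were above it in TAF-el4, 2 in TAF-tib48, 1 each in NSF and TAF-tib6 and none in TAF-tib42.

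**Figure D2:**
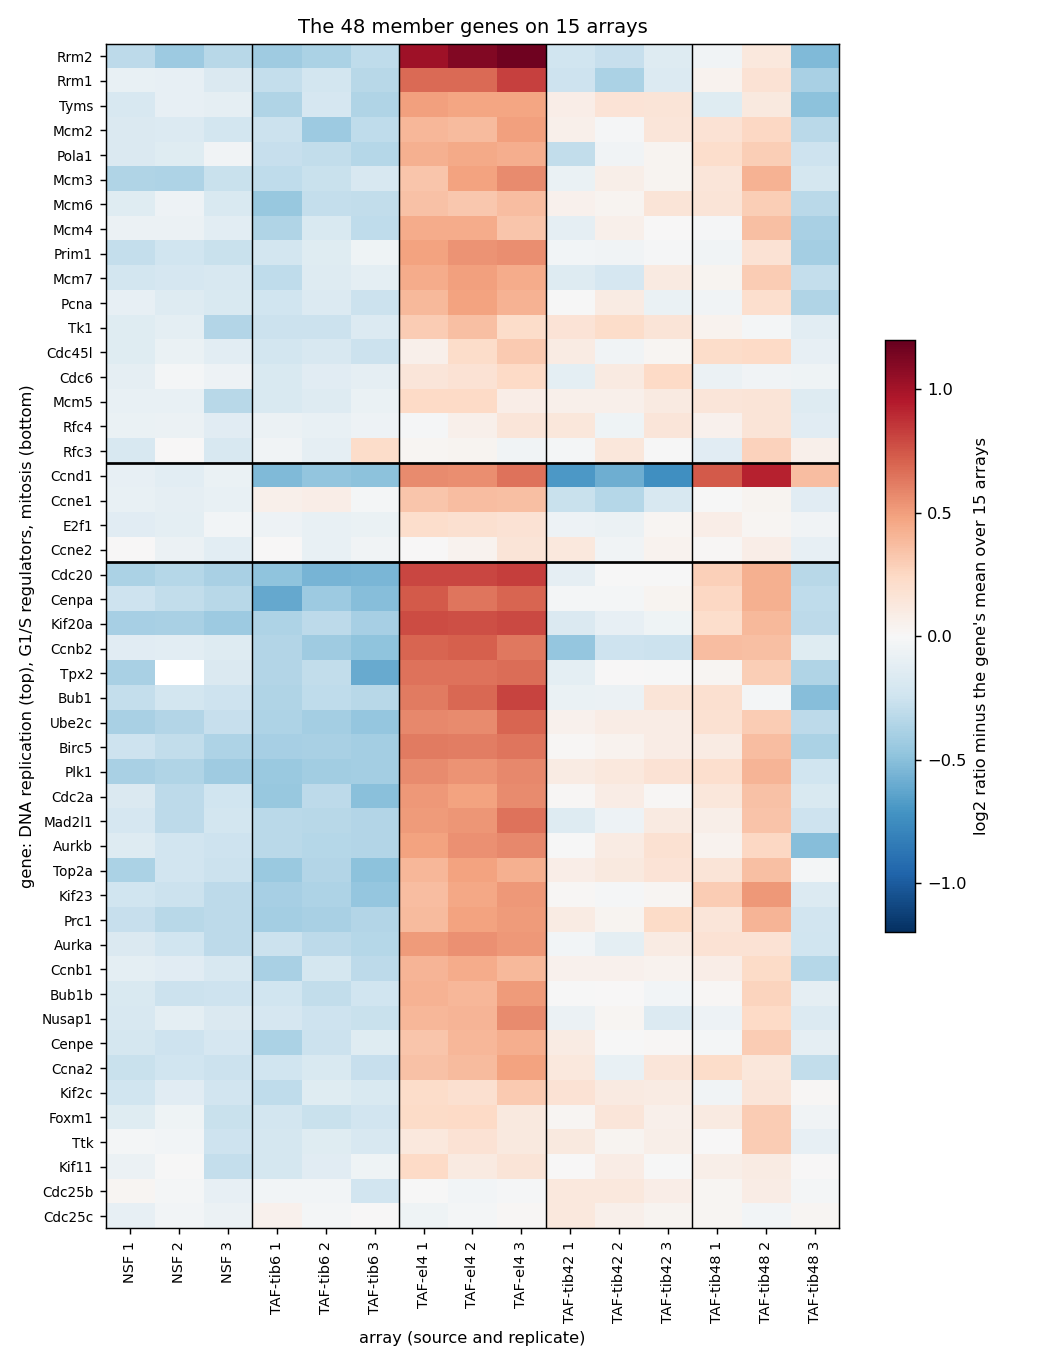
Log2 ratio of each of the 48 genes on each of the 15 arrays, after subtracting the gene's mean over the arrays. Rows are ordered within each role by the difference of TAF-el4 from TAF-tib6; the 3 TAF-el4 columns are red for most rows, and the white cell is a missing Tpx2 spot.

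In TAF-el4 against TAF-tib6, 43 of 48 members were higher and none lower at an adjusted p under 0.05, in a background where 20.6% of all genes tested were called in either direction, 11.4% higher and 9.24% lower. The median difference was 0.71, against 0.003 over all genes, and 11 members differed by 2-fold or more. Against NSF, the other sensitive source, 43 members were again higher and none lower (17.3% of all genes called, 8.75% higher and 8.57% lower), with a median of 0.64 and 3 members at 2-fold or more. These comparisons share the TAF-el4 arrays. All 3 TAF-el4 arrays lay above all 3 arrays of TAF-tib6 for 45 members (19.9% of all genes) and above those of NSF for 44 (16.1%). Within slide run 1, where TAF-el4 replicates 1 and 2 lay beside all NSF arrays, 43 members were higher with a median of 0.62. The share of all genes called within that run is not given here, so this count is not read as a result about the members. With the slide run as a block the median against TAF-tib6 was 0.64 and 22 members were called (5.49% of all genes).

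Among the replication genes the difference was largest for Rrm2, the small subunit of ribonucleotide reductase, which makes deoxynucleotides. Rrm2 measured -0.12, -0.03 and 0.03 on the TAF-el4 arrays, -1.57, -1.52 and -1.45 in TAF-tib6, -1.45, -1.57 and -1.47 in NSF, -1.38, -1.41 and -1.29 in TAF-tib42, and -1.18, -1.01 and -1.67 in TAF-tib48. Every TAF-el4 array lay above every other array, while the other 4 sources lay close together. Rrm2 was 2.77-fold higher in TAF-el4 than in TAF-tib6 (log2 difference 1.47, SE 0.11, adjusted p = 1.37e-08), 2.75-fold higher than in NSF and 2.50-fold higher than in TAF-tib42. Rrm2 in TAF-tib42 and TAF-tib48 differed from TAF-tib6 by 0.15 and 0.22, which did not pass the test (adjusted p = 0.35 and 0.145). Without TAF-tib48 replicate 3 the TAF-tib48 difference was 0.41 and was called (adjusted p = 7e-05).

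Rrm1, the large subunit of the same enzyme, was 0.03, 0.03 and 0.17 in TAF-el4 and between -1.04 and -0.48 on all other arrays. It was 2.01-fold higher in TAF-el4 than in TAF-tib6 (1.01, SE 0.10, adjusted p = 4.86e-07). The subunits of the MCM helicase were all called higher in TAF-el4 against both sensitive sources, by 0.33 (Mcm5) to 0.76 (Mcm2) against TAF-tib6 and by 0.36 (Mcm5) to 0.79 (Mcm3) against NSF. Pcna, the sliding clamp, was -0.95, -0.85 and -0.92 in TAF-el4, -1.58, -1.50 and -1.59 in TAF-tib6 and -1.44, -1.50 and -1.52 in NSF. Its TAF-el4 arrays lay above all others, by 0.65 over TAF-tib6 (SE 0.09, adjusted p = 3.49e-05). Tyms, which makes thymidylate, and Prim1, the primase subunit, were higher in TAF-el4 than in TAF-tib6 by 0.79 and 0.66. Rfc3 and Rfc4, subunits of the clamp loader, were the replication genes not called (-0.02, SE 0.09, and 0.14, SE 0.07). In all, 15 of 17 replication genes were higher, with a median of 0.66. When the slide run was a block, the calls of Rrm1 and Rrm2 against TAF-tib6 held, whereas Mcm2 to Mcm7 (0.08 for Mcm5, 0.54 to 0.78 for the others), Pcna (0.61), Tyms (0.74) and Prim1 (0.62) had adjusted p of 0.051 to 0.862.

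Of the G1/S regulators, E2f1, Ccne1 and Ccnd1 were higher in TAF-el4 than in both sensitive sources, and Ccne2 (0.11, SE 0.06) was not called. E2f1, a transcription factor for the replication genes, was 0.12, 0.10 and 0.07 in TAF-el4 and between -0.23 and -0.01 elsewhere, a small difference of 0.27 over TAF-tib6 (SE 0.04, adjusted p = 0.000144). Its TAF-el4 arrays did not overlap those of any other source. Under the slide-run block neither E2f1 (0.16, adjusted p = 0.397) nor Ccne1 (0.27, adjusted p = 0.176) was called against TAF-tib6.

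Of the 27 mitotic genes, 25 were higher in TAF-el4 than in TAF-tib6 (median 0.86, 8 at 2-fold or more) and 25 than in NSF (median 0.75). Cdc20, which releases cells into anaphase, was 0.28, 0.28 and 0.30 in TAF-el4, -1.01, -1.09 and -1.07 in TAF-tib6, -0.90, -0.86 and -0.92 in NSF, -0.64, -0.53 and -0.53 in TAF-tib42 and -0.24, -0.10 and -0.86 in TAF-tib48. The TAF-el4 arrays lay above the reference and the sensitive arrays well below it, with the other resistant sources between them. Cdc20 was 2.54-fold higher in TAF-el4 than in TAF-tib6 (1.34, SE 0.12, adjusted p = 1.53e-07) and 2.27-fold higher than in NSF. With the slide run as a block the difference from TAF-tib6 was 1.12 (adjusted p = 0.0136).

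Kif20a, a kinesin of the central spindle, was 0.28, 0.28 and 0.29 in TAF-el4, -0.87, -0.81 and -0.90 in TAF-tib6 and -0.90, -0.89 and -0.93 in NSF. It was 2.21-fold and 2.28-fold higher in TAF-el4 than in TAF-tib6 and NSF (adjusted p = 3.55e-07 and 2.38e-07), and the arrays did not overlap. Cenpa, the histone H3 variant of centromeres, was -0.57, -0.66 and -0.60 in TAF-el4 and -1.91, -1.73 and -1.81 in TAF-tib6, a 2.31-fold difference (1.21, SE 0.11, adjusted p = 3.82e-07). Ccnb2, a B-type cyclin, and Bub1, a kinase of the spindle checkpoint, were 2.14-fold and 2.06-fold higher. Tpx2, which nucleates spindle microtubules and activates Aurora A, was higher by 1.07 against TAF-tib6, and by 0.94 against NSF, where 1 of 3 spots was missing. Birc5 and Ube2c exceeded 2-fold against TAF-tib6, at 1.02 and 1.03, and Plk1 was close to it at 0.98. The transcription factor Foxm1 was higher by 0.44 (SE 0.07, adjusted p = 0.000187), and by 0.38 with the slide run as a block, which was not called (adjusted p = 0.186).

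The mitotic genes that were not called in TAF-el4 were the phosphatase genes Cdc25b and Cdc25c, which activate the cyclin-dependent kinases. By its brightest probe Cdc25c lay between -0.20 and 0.03 on all 15 arrays and differed by -0.03 (SE 0.04) between TAF-el4 and TAF-tib6. A dimmer Cdc25c probe gave 0.14 (SE 0.05), and 0.15 (SE 0.05) against NSF. Cdc25b also depended on the probe: against TAF-tib6 the brightest probe gave 0.08 (SE 0.05), a second gave 0.78 (SE 0.07) and the dimmest 0.09 (SE 0.07).

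Several probes were present for 13 of the 48 members, and they disagreed for some others. For Cdc2a the brightest probe gave 0.95 and the dimmer 0.03, and for Top2a they gave 0.87 and 0.15, each between TAF-el4 and TAF-tib6. Kif11 gave 0.30 and -0.19, and Mcm3 0.71 and 0.28. For Ccnb1 the 3 probes gave 0.72, 0.86 and 1.36, for Cenpe 0.65 and 0.63, for Kif23 0.86 and 0.78 and for Tyms 0.79 and 0.80. Which transcripts the disagreeing probes read was not tested. With the mean of all probes of a gene in place of the brightest, 13 of 271 single-gene results fell short of the threshold and none changed sign.

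**Figure D3:**
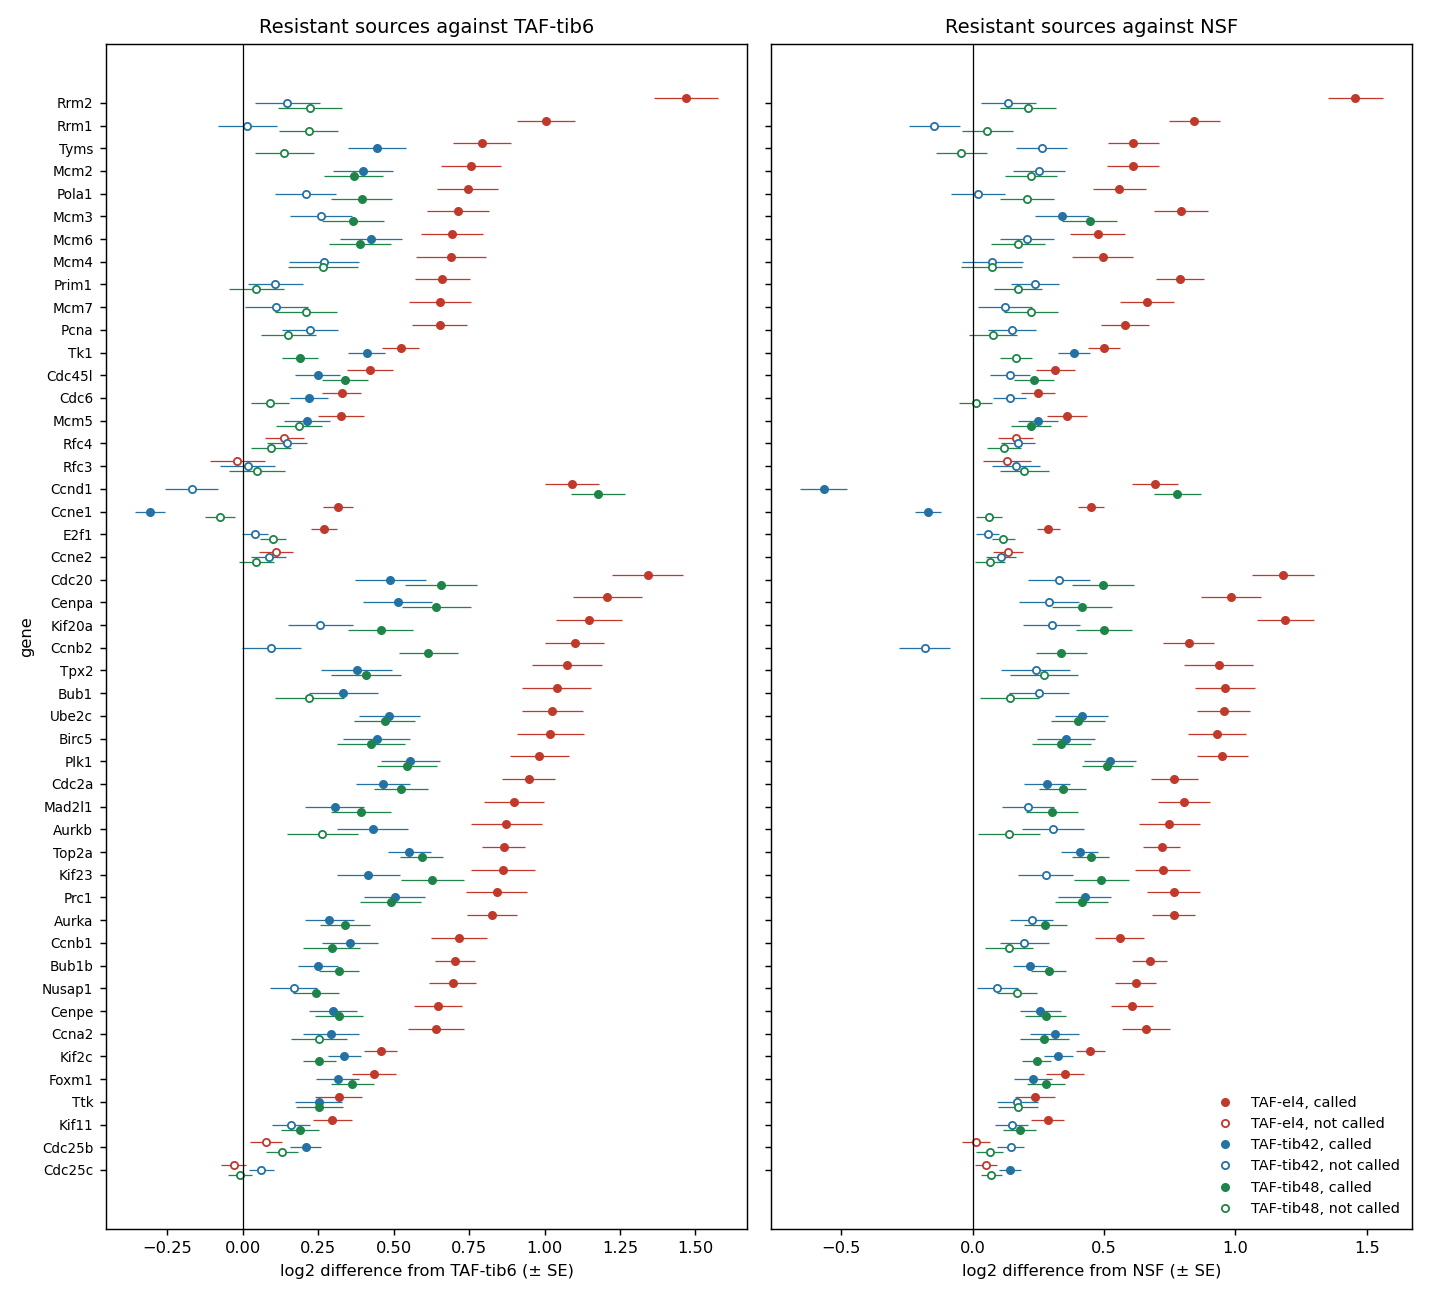
Log2 difference (± SE) of each member in TAF-el4, TAF-tib42 and TAF-tib48 from TAF-tib6 (left) and NSF (right); filled points have an adjusted p under 0.05. The red TAF-el4 points lie to the right of both other resistant sources for most genes, up to 1.47 for Rrm2, while for Ccnd1 and Ccne1 TAF-tib42 lies to the left of the other resistant sources.

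TAF-tib42 showed smaller differences for most members. Against TAF-tib6, 29 of 48 members were higher and 1 lower (24.8% of all genes called, 11.7% higher and 13.1% lower), with a median of 0.26 and none at 2-fold. The arrays did not overlap for 37 members that were higher in TAF-tib42 than in TAF-tib6 (19.1% of all genes) and for 35 that were higher than in NSF (18.4%). Against NSF 15 were higher and 2 lower (24% called, 10.8% higher and 13.2% lower), with a median of 0.22. Mitotic genes made up most of the calls, with 22 of 27 higher than in TAF-tib6 (median 0.33) as against 7 of 17 replication genes (median 0.22); the difference between these roles was not tested. TAF-tib42 shares no slide run with TAF-tib6 or NSF. With the slide run as a block the medians were 0.23 and 0.18, and 3 and 2 members were called, when 9.71% and 7.78% of all genes were, so the members' share of calls was no larger than that of all genes. Against NSF the count was 11 without TAF-tib42 replicate 1, 11 without its replicate 3, and 32 without TAF-tib48 replicate 3, an array of neither source that enters the shared estimate of the spread. These counts with an array left out stand without the share of all genes and are not read as results about the members.

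By the brightest probe of each gene, Plk1, the kinase that drives entry into mitosis, had the largest difference from TAF-tib6 in TAF-tib42. From brightest to dimmest, the probes of Cdc25b gave 0.21, 0.80 and 0.14 there, and those of Ccnb1 0.35, 0.61 and 0.385. Plk1 measured -0.33, -0.30 and -0.25 in TAF-tib42, -0.87, -0.84 and -0.83 in TAF-tib6 and -0.81, -0.78 and -0.85 in NSF. The TAF-tib42 arrays lay above all sensitive arrays and below those of TAF-el4 (0.14, 0.12 and 0.15). The difference was 0.56 from TAF-tib6 (SE 0.10, adjusted p = 0.00032) and 0.52 from NSF (adjusted p = 0.000597). Top2a, the topoisomerase that untangles chromosomes, was -1.59, -1.54 and -1.50 in TAF-tib42 against -2.11, -2.02 and -2.16 in TAF-tib6, higher by 0.55 (SE 0.07, adjusted p = 1.02e-05). Its dimmer probe gave 0.20 (SE 0.05). Cdc20, Cenpa and Prc1, which bundles the midzone of the spindle, were higher than in TAF-tib6 by 0.49, 0.51 and 0.50. Under the slide-run block Top2a was still called (0.57, adjusted p = 0.0133), while Plk1 (0.44), Cdc20 (0.25), Cenpa (0.32) and Prc1 (0.45) were not, with adjusted p of 0.168, 0.569, 0.42 and 0.177. Of the replication genes, Tyms, Mcm6, Tk1 and Mcm2 had the largest differences from TAF-tib6 (0.44, 0.43, 0.41 and 0.40). Tk1, the thymidine kinase of S phase, was at -0.66, -0.60 and -0.68 in TAF-tib42 against -1.08, -1.09 and -0.99 in TAF-tib6 (0.41, SE 0.06, adjusted p = 4.96e-05); with the block Tk1 was called against NSF (0.50, adjusted p = 0.0059) and not against TAF-tib6 (0.29, adjusted p = 0.0952). Rrm1 (0.02, SE 0.10) and Rrm2 did not follow, and differed by 0.99 and 1.32 between TAF-el4 and TAF-tib42.

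By the median of all members, TAF-tib48 lay between TAF-el4 and the sensitive sources on replicates 1 and 2 and near the sensitive sources on replicate 3. For the replication genes alone, the median on replicate 2 (-1.14) lay above those of the TAF-el4 arrays (-1.19, -1.16 and -1.18). Against TAF-tib6, 29 members were higher and none lower (24.7% of all genes called, 11.5% higher and 13.2% lower), with a median of 0.28; without replicate 3, 41 were higher with a median of 0.43 (24.6% of all genes called). Against NSF 23 were higher (26.2% called, 11.7% higher and 14.4% lower) with a median of 0.22, and 41 with a median of 0.36 without replicate 3. All 3 TAF-tib48 arrays lay above all arrays of TAF-tib6 for 26 members (17.7% of all genes) and above those of NSF for 13 (18.8%). Without replicate 2 the counts were 18 and 11, and against NSF 15 were called without replicate 1. The share of all genes is not given for these counts, nor for the 41 against NSF without replicate 3. They are not read as results about the members. Within slide run 3, which holds TAF-tib48 replicates 2 and 3, 11 members were called against TAF-tib6 with a median of 0.28 (16.1% of all genes called). Blocking on the slide run gave 22 calls against TAF-tib6 (21.3% of all genes) and 1, Ccnd1, against NSF (6.52%).

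By role, 22 of 27 mitotic genes and 6 of 17 replication genes were higher in TAF-tib48 than in TAF-tib6, and 25 and 15 without replicate 3. Cenpa was -1.05, -0.88 and -1.60 in TAF-tib48, so that the third array lay among those of NSF (-1.55, -1.60 and -1.64). The difference from TAF-tib6 was 0.64 (SE 0.11, adjusted p = 0.000374), and 0.86 without that array. Kif23, a kinesin of the midbody, was -1.08, -0.87 and -1.55 against -1.78, -1.75 and -1.85 in TAF-tib6, a difference of 0.63 (SE 0.10, adjusted p = 0.000193), or 0.82 without replicate 3. Ccnb2 was -0.39, -0.40 and -0.91 in TAF-tib48, with the third array at the level of NSF (-0.90, -0.89 and -0.92). It was higher than in TAF-tib6 by 0.62 (adjusted p = 0.000113). In TAF-tib42 Ccnb2 was -1.23, -1.01 and -1.02, which did not differ detectably from TAF-tib6 (0.10, SE 0.10).

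**Figure D4:**
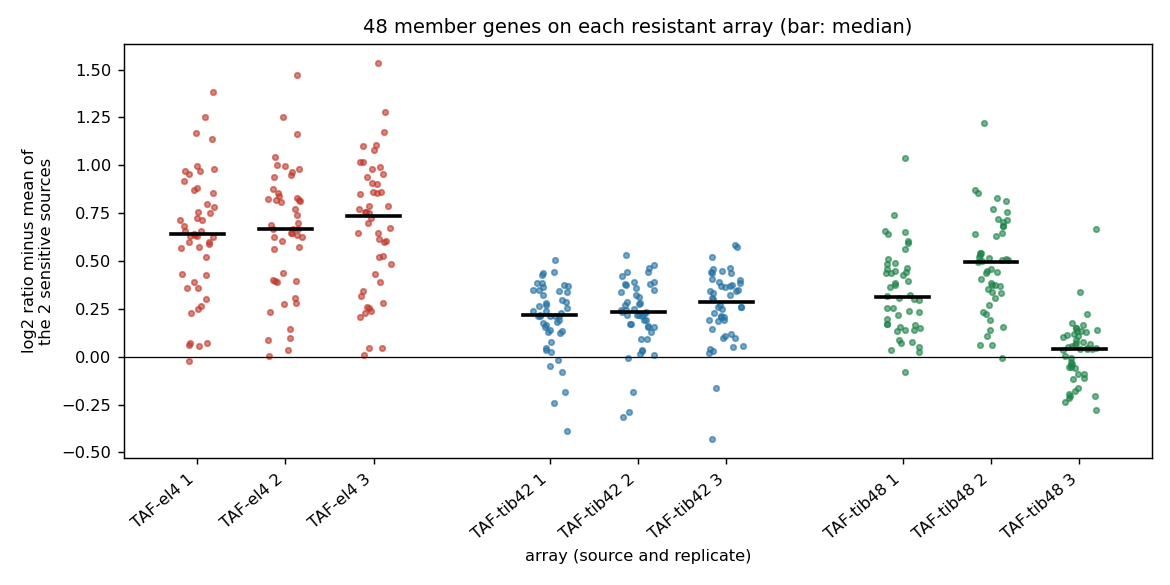
Log2 ratio of each of the 48 members on each resistant array after subtracting the mean of the 2 sensitive sources; bars are medians. The 3 arrays of TAF-el4 and of TAF-tib42 agree in level, while the medians of TAF-tib48 are 0.31, 0.50 and 0.04.

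Most members were higher in TAF-el4 than in the other resistant sources too. Against TAF-tib42, 34 members were higher and none lower (23% of all genes called, 13.3% higher and 9.66% lower; median 0.43), and against TAF-tib48, 36 were higher and none lower (23.8% called, 14.1% higher and 9.73% lower; median 0.39). Without TAF-tib48 replicate 3, 30 were higher than in TAF-tib48 and 1, Ccnd1, was lower, with a median of 0.25. With the slide run as a block 25 were called against TAF-tib42 and 9 against TAF-tib48, with medians of 0.43 and 0.35. Within slide run 2 the member median was -0.62 on the TAF-el4 array, -1.12, -1.08 and -1.07 on the TAF-tib42 arrays and -0.99 on the TAF-tib48 array. Between TAF-tib42 and TAF-tib48, 5 members were called (14.3% of all genes called, 6.63% higher and 7.65% lower in TAF-tib42), a share no larger than that of all genes. Tyms and Tk1 were higher in TAF-tib42, and Ccnd1, Ccnb2 and Ccne1 were higher in TAF-tib48. Without TAF-tib48 replicate 3, 16 members were called, all lower in TAF-tib42, and 3 were called without TAF-tib42 replicate 2. Here the counts with the block or with an array left out stand without the share of all genes under that setting. They are not read as results about the members.

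Fewer members were called between the sensitive sources than between any other pair of sources. Over all genes, too, this pair had the smallest share called. TAF-tib6 was lower than NSF for Ccnd1 alone of the 48 members, and none was higher (11.3% of all genes called, 4.63% higher and 6.72% lower), with a median of -0.08. The arrays did not overlap for 19 members that were lower in TAF-tib6 (17.4% of all genes) and 3 that were higher (13.7%). Ccnb2 and Cenpa differed by -0.28 (SE 0.10) and -0.23 (SE 0.11) and were not called. Without TAF-tib48 replicate 3, 6 members were called lower in TAF-tib6 and 1 higher, and with the slide run as a block none was called, Ccnd1 included (-0.40, adjusted p = 0.527).

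Ccnd1 and Ccne1 did not follow the order of most other members. Ccnd1, the cyclin D1 gene, was 0.36, 0.54 and -0.01 in TAF-tib48, 0.19, 0.17 and 0.27 in TAF-el4, -0.48, -0.51 and -0.46 in NSF, -0.91, -0.86 and -0.87 in TAF-tib6 and -1.07, -0.97 and -1.11 in TAF-tib42. TAF-tib48 and TAF-el4 overlapped at the top, and 1 resistant source, TAF-tib42, lay below every array of both sensitive sources. Ccnd1 was 2.13-fold higher in TAF-el4 and 2.26-fold higher in TAF-tib48 than in TAF-tib6 (adjusted p = 6.22e-08 and 1.45e-08). TAF-tib42 was 1.48-fold lower than NSF (-0.57, SE 0.09, adjusted p = 9.75e-05) and 2.54-fold lower than TAF-tib48 (adjusted p = 2.83e-09), and its difference from TAF-tib6 (-0.17, SE 0.09) was not called. TAF-tib48 and TAF-el4 did not differ by the test (-0.09 for TAF-el4 minus TAF-tib48, SE 0.09), but without TAF-tib48 replicate 3 TAF-el4 was lower by 0.24 and called (adjusted p = 0.0052).

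Ccne1, the cyclin E1 gene, was 0.53, 0.57 and 0.56 in TAF-el4, 0.26, 0.28 and 0.18 in TAF-tib6, 0.20, 0.24 and 0.06 in TAF-tib48, 0.11, 0.09 and 0.11 in NSF and -0.07, -0.14 and 0.01 in TAF-tib42. TAF-el4 lay above all others and TAF-tib42 below all others, while TAF-tib6, TAF-tib48 and NSF were close together. Ccne1 was higher in TAF-el4 than in TAF-tib6 by 0.31 (SE 0.05, adjusted p = 0.000116) and lower in TAF-tib42 by 0.31 (adjusted p = 0.000127). By the brightest probe of each gene, Ccne1 was the single member called lower in TAF-tib42 than in TAF-tib6. Ccnd1 and Ccne1 were the members called lower in TAF-tib42 than in NSF. The lower Ccne1 in TAF-tib42 depended on the probe: a dimmer probe gave -0.04 (SE 0.04) against TAF-tib6 and 0.08 (SE 0.04) against NSF.

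**Figure D5:**
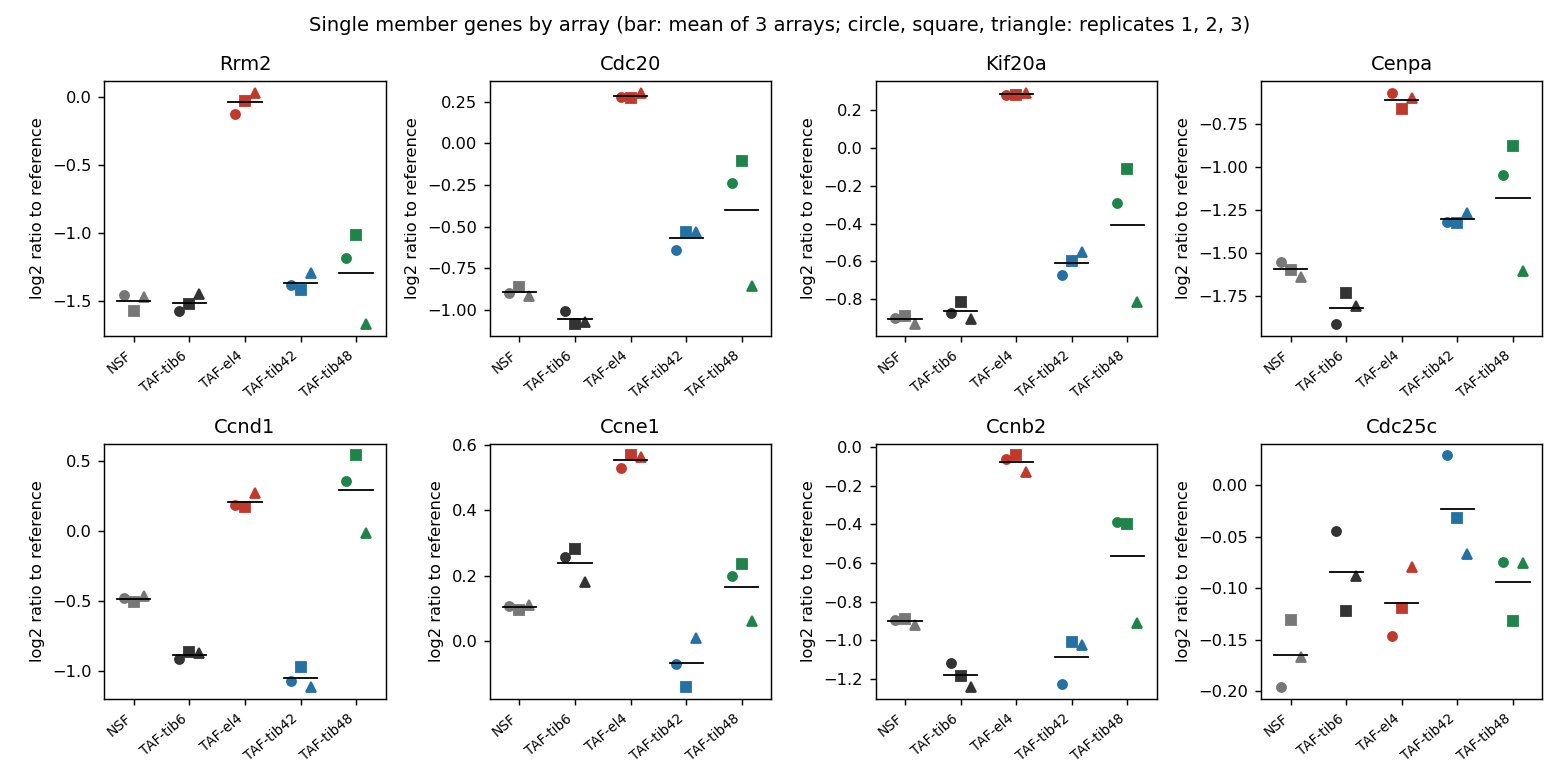
Log2 ratio to the reference of 8 members on each array, by source, with the mean of 3 arrays as a bar; the y axes differ between panels. TAF-el4 stands above all other arrays for Rrm2, Cdc20, Kif20a, Cenpa, Ccne1 and Ccnb2, Ccnd1 is low in TAF-tib42 and high in TAF-tib48, and Cdc25c spans -0.20 to 0.03.

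The 3 resistant sources were also set against the 2 sensitive ones with the source as the unit. No member was called by limma at an adjusted p under 0.05, in a background where 1 gene of all tested was (0.0032%), and 26 of 48 had an unadjusted p under 0.05, all with higher resistant means (4.52% of all genes were higher at that level and 4.7% lower). All 48 differences were positive, with a median of 0.39 against -0.002 over all genes. For 41 of 48 members all 3 resistant means lay above both sensitive means, as against 13.6% of all genes tested, and for 42 without TAF-tib48 replicate 3 (13.9%). The largest difference was that of Cdc20 (0.75, SE 0.26, adjusted p = 0.491), and that with the smallest p was Foxm1 (0.33, SE 0.05, unadjusted p = 0.0017, adjusted p = 0.257). Rrm2 differed by 0.61 with an SE of 0.42 (adjusted p = 0.723).

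Other genes of these pathways were read from lists of the same roles, and their counts against TAF-tib6 stand beside the share of all genes called there: 11.4% higher and 9.24% lower in TAF-el4, 11.7% and 13.1% in TAF-tib42, and 11.5% and 13.2% in TAF-tib48. The lists used here and below were chosen with earlier results of these data known, so their counts are not independent support for those of the members. Of 38 other mitosis genes, all 38 were higher in TAF-el4 than in TAF-tib6 (median 0.65), among them Cks2, which binds the mitotic kinase (1.22), Ect2, which positions the cleavage furrow (1.12), the spindle gene Tacc3 (1.11) and the abscission gene Cep55 (1.04). In TAF-tib42 24 were higher and 1 lower, and in TAF-tib48 24 were higher and 1 lower than in TAF-tib6; the lower gene was Gtse1 in both (-0.29 and -0.24). Of 31 other replication genes, 23 were higher and none lower in TAF-el4 (median 0.32), led by Rpa1 of the single-strand binding complex (2.01-fold higher), the licensing inhibitor Gmnn (log2 difference 0.88), Uhrf1 (0.77) and Dbf4, the activator of the Cdc7 kinase (0.74). TAF-tib42 had 14 higher and 3 lower than TAF-tib6, the lower being Gins4 (-0.31), Orc6 (-0.20) and Rpa3 (-0.20). TAF-tib48 had 9 higher and 2 lower, which were Cdc7 (-0.27) and Rpa2 (-0.24). Of 11 genes of homologous recombination and its checkpoint, 8 were higher in TAF-el4, with the exonuclease gene Exo1 at 0.71, while in TAF-tib42 4 were higher and 1, the mismatch repair gene Msh6, was lower (-0.23).

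The counts were smaller for the regulators above these genes, and those of lower genes were close to the share over all genes. Of 16 genes of E2F factors, pocket proteins and MuvB, 7 were higher and 2 lower in TAF-el4 than in TAF-tib6 (median 0.09): the repressor E2F genes E2f7 and E2f8 were higher by 0.81 and 0.42 and Lin54 by 0.38, while the pocket protein genes Rb1 and Rbl2 were lower (-0.35 and -0.25). Rb1 was also lower in TAF-tib42 (-0.44) and TAF-tib48 (-0.19) than in TAF-tib6, and against NSF it was lower in TAF-el4 (-0.25) and TAF-tib42 (-0.34) and not called in TAF-tib48 (-0.09). Of 8 other G1 cyclins, kinases and activators, 2 were higher and 1 lower in TAF-el4, and the lower one, Ccnd2 (cyclin D2), was lower than in TAF-tib6 in all 3 resistant sources, with differences of -0.73 in TAF-el4, -1.64 in TAF-tib42 and -0.28 in TAF-tib48 (adjusted p = 1.88e-08, 9e-14 and 0.000734). Against NSF, Ccnd2 was lower in TAF-el4 (-0.35) and TAF-tib42 (-1.26) but not in TAF-tib48 (0.10, adjusted p = 0.184), and TAF-tib6 itself was higher than NSF (0.38).

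The 7 genes of inhibitors of the cyclin-dependent kinases differed most in TAF-tib42, where 4 were lower than in TAF-tib6 by over 2-fold and 1 was higher. Cdkn2b (p15INK4b) was -2.44, -2.57 and -2.51 in TAF-tib42, 0.90, 0.99 and 1.05 in TAF-tib6, 0.72, 0.71 and 0.74 in NSF, 0.37, 0.36 and 0.32 in TAF-el4 and 0.69, 0.72 and 0.91 in TAF-tib48. Its TAF-tib42 arrays lay far below all others (-3.49 against TAF-tib6, SE 0.05, adjusted p = 4.97e-18). Cdkn2a was -1.89, -1.80 and -2.14 in TAF-tib42 against 1.12, 0.94 and 0.91 in TAF-tib6 (-2.93, SE 0.12, adjusted p = 1.64e-12), and also lower than in TAF-tib6 in TAF-tib48 (-1.26) and TAF-el4 (-0.58). The sensitive sources differed in these genes, with 4 of 7 higher and 1 lower in TAF-tib6 than in NSF, Cdkn2a by 0.79. Against NSF, Cdkn2a was lower in TAF-tib42 (-2.14) and TAF-tib48 (-0.47) and not called in TAF-el4 (0.21, adjusted p = 0.3), and Cdkn2b was lower in TAF-tib42 (-3.23) and TAF-el4 (-0.38) and not called in TAF-tib48 (0.05). Cdkn1c and Cdkn1a differed by -1.25 and -1.04 between TAF-tib42 and TAF-tib6, and by -0.86 and -0.68 between TAF-tib42 and NSF. Cdkn2d was higher than in TAF-tib6 by 0.60, 0.60 and 0.45 in TAF-el4, TAF-tib42 and TAF-tib48, and higher than in NSF by 0.30 and 0.29 in TAF-el4 and TAF-tib42, with 0.15 in TAF-tib48 not called.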

How the data were processed

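RNA of 5 fibroblast sources was measured on 15 arrays, 3 per source. The deposited scanner files hold spot intensity values for Cy5 and Cy3 with local background, together with a log10 ratio, Cy5 over Cy3, from the scanner software, per the file headers. The deposited table of the authors' processed values holds log2 ratios: set against that array's scanner ratios in log2, every column had a slope and a correlation of 1. Its medians were 0.03375 to 0.0511, so it was not centred, and 619 to 1075 cells were empty per array. Feature Extraction was version 8.5.1.1 per the submitters' processing notes and 9.5 per a protocol label.

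In R 4.3.3, limma 3.58.1 corrected the intensities for background (normexp with an offset of 50) and applied loess within each array. Control spots had weight 0, spots flagged as outliers were left out, and saturated spots were kept. Of 41174 probes, 63 were members by the naming rule, and 22010 of the others were named through an accession in the GRCm38.p6 gene table. Each gene was read from its brightest probe. Genes entered the test where the scanner flagged Cy5 as well above background on every array of 1 source or more.

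A single limma model (lmFit, eBayes) with 5 source means, fitted to the 15 arrays, gave the 10 comparisons between sources, with Benjamini-Hochberg adjustment over 31227 genes and calls under 0.05. For resistant against sensitive, limma was run on the means of the 5 sources. On simulated data for TAF-el4 against TAF-tib6 with 30604 genes, 78% of genes changed by 1.2-fold and 100% of those changed by 1.5-fold or more were recovered, with 10 false calls. The changed genes were drawn at random from all genes, each at its own spread, so these shares do not apply to the members. The median SD between arrays of a source was 0.14 for the members and 0.06 for all genes tested, and precision is limited by how many arrays there were. Members and lists were chosen with earlier results of these data known. Any member could be named; from the other lists, up to 4 called genes with the largest differences in the comparison described, and any called against the direction of the others.

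The replicate numbers of different sources do not pair the arrays: deviations from the source mean correlated at -0.19 to 0.17 (median -0.03) over 30 same-numbered pairs. Alternatives covered the background correction, centring, scaling between arrays, the scanner's ratio, the authors' table, Cy5 alone, the dim-probe filter, the probe rule, blocks for the replicate number and the slide run, and leaving out arrays.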

Additional observations from a re-analysis of the deposited data

How the results depend on the processing

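Of 5379 single-gene results recomputed under these alternatives, 4631 kept their direction and side of the threshold, 734 kept their direction and lost the call, 8 gained it and 6 changed sign. The results followed were the members called in each comparison of sources, and the 10 members with the largest resistant-minus-sensitive differences. Members not called between sources were not followed, so no call could be gained there. All 8 gains came with the source as a random block. With median centring in place of loess, 5 members were called in TAF-tib42 against NSF, 7 in TAF-tib48 against NSF, 3 in TAF-tib6 against NSF and 3 in TAF-tib42 against TAF-tib48. With ratios scaled between arrays, 17 and 18 were called in TAF-tib42 and TAF-tib48 against TAF-tib6, and 9 and 10 against NSF. With the scanner's own ratio and with the authors' table alike, 11 were called in TAF-tib42 against NSF and 3 in TAF-tib42 against TAF-tib48. With Cy5 alone, 19 were called in each of TAF-tib42 and TAF-tib48 against TAF-tib6, 3 in TAF-tib6 against NSF and 2 in TAF-tib42 against TAF-tib48; Kif2c in TAF-tib42 against NSF (-0.009) and Mad2l1 (-0.10), Kif11 (-0.063) and Kif2c (-0.071) in TAF-tib48 against NSF changed sign. The causes of these changes were not tested.

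With the slide run as a block, 22 members were called in TAF-el4 against TAF-tib6, 3 in TAF-tib42 against TAF-tib6, 2 in TAF-tib42 against NSF, 1 in TAF-tib48 against NSF, 0 in TAF-tib6 against NSF, 9 in TAF-el4 against TAF-tib48 and 3 in TAF-tib42 against TAF-tib48, and Ccna2 (-0.007) and Bub1 (-0.12) in TAF-tib42 against TAF-tib6 changed sign. Within slide run 3, 11 were called in TAF-tib48 against TAF-tib6. Resistant against sensitive sources gave 14 called members with all arrays and the source as a random block, against 0 on source means. The share of all genes called in that fit is not given here, so the 14 are not set against it. The causes of the changes under these settings were not tested.

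With the replicate number as a block, 43 members were called in TAF-el4 against each of TAF-tib6 and NSF, 35 against TAF-tib42, 36 against TAF-tib48, 30 and 21 in TAF-tib42 against TAF-tib6 and NSF, 29 and 24 in TAF-tib48 against them, 5 in TAF-tib42 against TAF-tib48 and 1 in TAF-tib6 against NSF. Of 15 arrays, 2 correlated best with an array of their own number.

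Leaving out arrays gave 40 to 43 calls in TAF-el4 against TAF-tib6, 41 to 44 against NSF, 27 to 36 against TAF-tib42 and 27 to 38 against TAF-tib48. It gave 14 to 36 in TAF-tib42 against TAF-tib6, 6 to 32 against NSF and 2 to 16 against TAF-tib48, 12 to 41 in TAF-tib48 against TAF-tib6, 5 to 41 against NSF, and 0 to 7 in TAF-tib6 against NSF. Resistant against sensitive sources stayed at 0. Counts under an alternative that stand without a share of all genes are not read as results about the members. The median difference of TAF-tib42 from TAF-tib48 was -0.03 with all arrays and ranged from -0.17 (without replicate 3 of every source) to 0.10 (without replicate 2 of every source), with 0.08 without TAF-tib48 replicate 2. Values within slide runs and without TAF-tib48 replicate 3 in all comparisons were chosen after seeing the data.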
